A study of Saccharomyces cerevisiae with 5 samples.

Results

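The genes described here make phosphatidylcholine and the inositol lipids of budding yeast (Saccharomyces cerevisiae) or control that synthesis. The 9 genes are OPI3, CHO1, CHO2, PSD1, INO1, ITR1, CDS1, OPI1 and INO2. They were listed by name, selected on their log2 ratios in the same comparison of recovering with decompressed cells, and kept if they had a value in 2 or more hybridizations. All 9 met that rule, each through 1 feature of the array, among 4172 named genes that also met it. The study measured transcripts around the end of a period under hydrostatic pressure. Both groups were exponential cultures kept for 16 h under 30 MPa at 25 °C; the recovery group then grew for another 2 h at 0.1 MPa, and the decompressed group was harvested at release (0 h). The strain is not named in the labels. PolyA RNA of recovering cells carried Cy5 and that of decompressed cells Cy3, and both were hybridized to the same 2-colour spotted array in each of 3 hybridizations of independent biological samples. No array had the dyes swapped, so a dye effect on a gene and its change cannot be told apart.

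Phospholipids in yeast are built from phosphatidic acid through CDP-diacylglycerol, which is the branch point. One branch leads over phosphatidylserine and phosphatidylethanolamine to phosphatidylcholine by stepwise methylation with S-adenosylmethionine as the methyl donor. The other joins CDP-diacylglycerol to inositol and gives phosphatidylinositol. Many genes of both branches are activated by the Ino2-Ino4 pair of helix-loop-helix factors when inositol is scarce, and are repressed through Opi1 when inositol is plentiful, because falling phosphatidic acid releases Opi1 from the endoplasmic reticulum into the nucleus.

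Values are log2 ratios of the 2 channels. Which channel was divided by which is not stated in the labels; Cy5 over Cy3, the order in which they list the channels, is the likely direction, so that a negative value means less transcript in recovery. With the opposite order, all directions below would be reversed. A high power and a low power scan were deposited for hybridizations 1 and 2 and a single scan for hybridization 3, so there are 5 columns of values. The number of hybridizations limits the precision. A bulk ratio of this kind cannot tell fewer cells of a type from less RNA per cell. Values are missing often: 47.5% of the 4172 named genes, and 4 of the 9 described here, had a value in hybridization 3.

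The lowest ratios lay at the end of the phosphatidylcholine branch and at the supply of inositol. OPI3 and CHO2, the methyltransferases, and INO1, which makes inositol, had mean log2 ratios of -2.32, -2.10 and -2.03, corresponding to levels 4.99-fold, 4.29-fold and 4.09-fold lower in recovery. ITR1, the main inositol transporter, followed at 2.61-fold lower and OPI1, the repressor, at 1.93-fold lower. The other 4 genes, which include the enzymes at the branch point, had means between -0.56 and -0.10. Centred on ACT1, the actin gene, INO2, CHO1, PSD1 and CDS1 turned positive, while OPI3, CHO2, INO1, ITR1 and OPI1 stayed below 0.

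**Figure D1:**
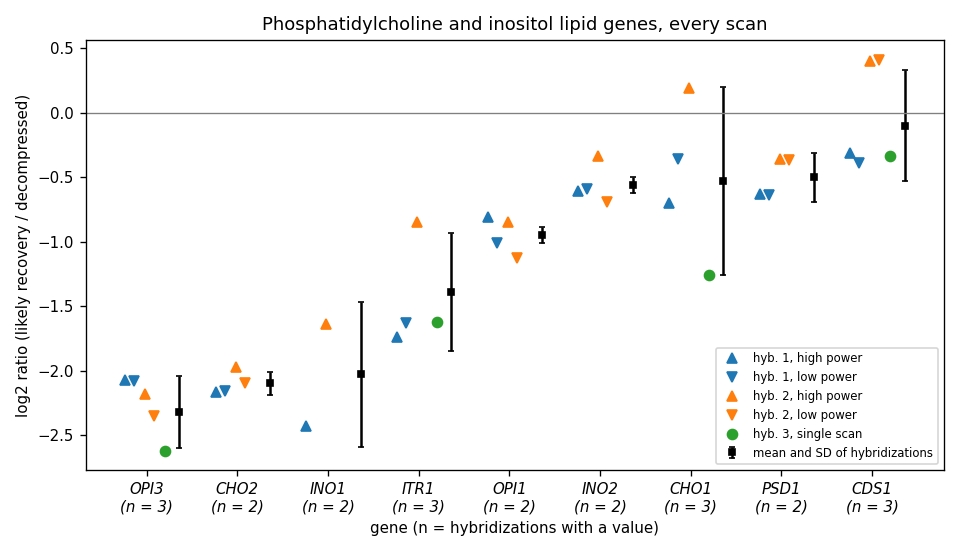
Log2 ratio (likely recovery over decompressed) of each of the 9 genes on the vertical axis, with a triangle for each high (up) or low (down) power scan of hybridizations 1 and 2, a circle for the single scan of hybridization 3, and a square with a bar for the mean and SD of the hybridizations. OPI3, CHO2 and INO1 sit lowest, at means of -2.32, -2.10 and -2.03, and CDS1 has its hybridization 2 scans near 0.40 and the others below 0.

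CDS1 (YBR029C) encodes the CDP-diacylglycerol synthase that feeds both branches. Its log2 ratio was -0.35 in hybridization 1, 0.40 in hybridization 2 and -0.34 in hybridization 3, a mean of -0.10 ± 0.43 (SD, n = 3). The sign differed between hybridizations, and its scans at high and low power within a hybridization differed by 0.08 and -0.01. CHO1 (YER026C), the phosphatidylserine synthase, takes CDP-diacylglycerol into the phosphatidylcholine branch. It was at -0.53, 0.19 and -1.26, with a mean of -0.53 ± 0.73 (SD, n = 3). CHO1 had the widest range of the 9 genes, 1.45, with hybridization 2 above 0 and hybridization 3 lowest.

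PSD1 (YNL169C), the mitochondrial phosphatidylserine decarboxylase, makes phosphatidylethanolamine. Its log2 ratio was -0.64 in hybridization 1 and -0.37 in hybridization 2, with a mean of -0.50 ± 0.19 (SD, n = 2). Both values lay below 0, and the high and low power scans were within 0.02 of each other. Feature number, used as a stand-in for position on the array, bore on this gene. After each hybridization was centred within groups of 200 neighbouring feature numbers, its mean was -0.83. After removal of the trend on coding length it was -0.36.

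CHO2 (YGR157W) carries out the first methylation of phosphatidylethanolamine. It was at -2.17 in hybridization 1 and -2.04 in hybridization 2, with a mean of -2.10 ± 0.09 (SD, n = 2) and no value in hybridization 3. Its 4 scans ran from -2.17 to -1.97, all far below those of PSD1, the enzyme just before it. OPI3 (YJR073C) adds the remaining methyl groups that complete phosphatidylcholine. It was at -2.07, -2.26 and -2.62 in hybridizations 1, 2 and 3, with a mean of -2.32 ± 0.28 (SD, n = 3). All 5 scans, which come from 3 hybridizations, lay between -2.62 and -2.07, below every scan of CDS1, CHO1 and PSD1. Because the genes were chosen on these ratios, such gaps between them describe them and are no test.

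On the inositol side, INO1 (YJL153C) encodes the inositol-3-phosphate synthase, the rate-limiting enzyme of inositol synthesis and the classic target of Ino2-Ino4. It had high power values only, -2.43 in hybridization 1 and -1.64 in hybridization 2, with a mean of -2.03 ± 0.56 (SD, n = 2). INO1 was the lowest of the 9 genes in hybridization 1, and the third lowest in hybridization 2. A lack of any low power value was shared by 6.71% of the 4172 named genes. ITR1 (YDR497C) imports inositol. It was at -1.69, -0.85 and -1.62, with a mean of -1.39 ± 0.46 (SD, n = 3). Hybridization 2, where only the high power scan gave a value, was the highest of the 3, and all 3 were below 0. INO1 and ITR1, which make and import inositol, thus had means of -2.03 and -1.39.

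The regulators had less negative log2 ratios than the enzymes lowest in the list. OPI1 (YHL020C), the repressor, was at -0.91 in hybridization 1 and -0.99 in hybridization 2, with a mean of -0.95 ± 0.06 (SD, n = 2). Its high power scans gave -0.81 and -0.85 and its low power scans -1.01 and -1.13, so scan power moved it more than hybridization did. INO2 (YDR123C), a subunit of the activator, was at -0.60 and -0.51, with a mean of -0.56 ± 0.06 (SD, n = 2). Its scans in hybridization 2 were -0.34 at high and -0.69 at low power, a wider gap than between the hybridizations. The small SDs of OPI1 and INO2 therefore understate how far their scans differed.

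Ordered by mean, the genes ran OPI3, CHO2, INO1, ITR1, OPI1, INO2, CHO1, PSD1 and CDS1. Most neighbours in this order did not differ by more than the larger of their SDs. The exceptions were INO1 and ITR1, which lay 0.65 apart with a larger SD of 0.56, and OPI1 and INO2, which lay 0.39 apart with SDs of 0.06 each. The gap between INO1 and ITR1 was still less than their combined SD of 0.72. Over hybridizations 1 and 2, which all 9 genes share, OPI3, CHO2 and INO1 were at -2.17, -2.10 and -2.03 and ITR1 at -1.27, while CHO1 and CDS1 were at -0.17 and 0.03. CHO1 thus stood above PSD1, at -0.50, when hybridization 3 was left out, and CDS1 changed sign.

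Hybridizations differed in level across these genes. All 4 genes with a value in hybridization 3 were lower there than in the mean of hybridizations 1 and 2, with differences from -0.35 (ITR1) to -1.09 (CHO1). Among all 1891 genes and unnamed features with 3 values, 59.7% were lower in hybridization 3, by a median difference of -0.14. Hybridization 1 was lower than hybridization 2 for 7 of the 9 genes, against 55.8% of 4213 with both values. The gap was -0.83 for ITR1, -0.79 for INO1, -0.75 for CDS1 and -0.72 for CHO1, where the median absolute gap over the 4213 was 0.38. The gap was at most 0.27 in size for the other 5.

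Set against the whole array, 3 of the genes stood at its lower edge. Among 4368 genes and unnamed features with 2 or more hybridizations, whose median was -0.01, OPI3 was the 9th lowest, CHO2 the 19th and INO1 the 22nd. A mean of -2 or lower was found for 23 of the 4368. ITR1 ranked 103 and OPI1 313 from the lowest, while 44.3% of the 4368 lay at or below CDS1. In each hybridization, 0.665%, 0.356% and 0.243% of all values were at or below that of OPI3. The median of the 9 means was -0.95; all 9 means were below 0, as were 50.5% of all 4368. Because the genes were chosen with these ratios known, the positions describe them and are no test.

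**Figure D2:**
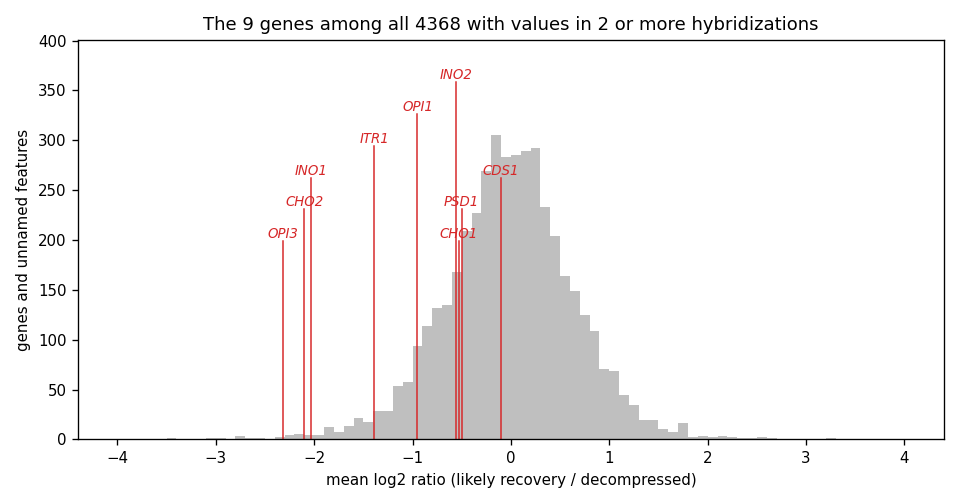
Histogram of the mean log2 ratio (likely recovery over decompressed) of 4368 genes and unnamed features with values in 2 or more hybridizations, in bins of equal width, with a vertical line for each of the 9 genes; the height of a line has no meaning. OPI3, CHO2 and INO1 lie in the lower tail, where 23 of the 4368 had a mean of -2 or lower, and CDS1 lies within the bulk.

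The mean of each gene was set against 0 with limma, a linear model with a variance shared across genes, at a Benjamini-Hochberg adjusted p threshold of 0.05. Over the 4368 it called 5 of the 9 genes lower and 0 higher, where 12.7% of all were called lower and 11.9% higher. The 5 were OPI3, CHO2, INO1, ITR1 and OPI1. OPI1 was no longer called when centred on ACT1, or when centred within array position groups, where PSD1 was called instead. Over the 1891 with values in all 3 hybridizations it called 2 of 4 lower (OPI3 and ITR1) and 0 higher, where 12.2% of all were called lower and 15.1% higher. These counts come from the ratios with which the genes were chosen, so nothing is read from them and no p-values are given for the 9 genes.

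Coding length moved with the log2 ratio across the array. Over genes of one array, which are not independent, Spearman's rho was -0.48 for hybridization 1 (4151 genes). It was -0.24 for hybridization 2 (4738 genes) and -0.23 for hybridization 3 (1988 genes). The 9 genes had a median coding length of 1374 bases against 1236 for the 4172 named genes with 2 or more hybridizations. OPI3, at 621 bases the shortest of them, went from -2.32 to -2.56 once the trend on length was subtracted from each hybridization. CHO2, at 2610 bases the longest, went from -2.10 to -1.80, INO1 (1602 bases) to -1.87 and ITR1 (1755 bases) to -1.21. The order of the 4 lowest genes was the same after that step apart from CHO2 and INO1, which changed places, and the median of the 9 was -0.89. CDS1 then had a mean of 0.02.

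**Figure D3:**
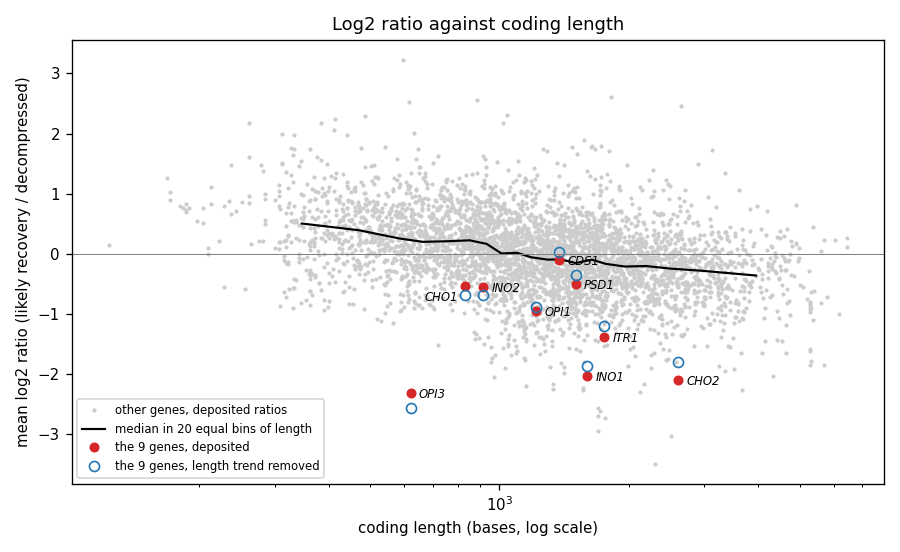
Mean log2 ratio (likely recovery over decompressed) against coding length in bases on a log axis. Grey points are genes with 2 or more hybridizations, the line joins medians in 20 bins that hold equal numbers of genes, filled circles are the 9 genes as deposited and open circles the same genes with the length trend removed; OPI3 at 621 bases lies far below the line and moves from -2.32 to -2.56, and CHO2 at 2610 bases moves from -2.10 to -1.80.

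Position on the array, as read from the feature number, was the other measure that moved single genes. That feature numbers follow the layout of the array was assumed. Centring within groups of 200 neighbouring feature numbers left OPI3 at -2.16, CHO2 at -2.12 and ITR1 at -1.37. INO1 went to -2.28, and OPI1 went from -0.95 to -0.63. With position and length both corrected, OPI3 was at -2.40, INO1 at -2.13, CHO2 at -1.83 and ITR1 at -1.20, and all 9 means were below 0, from -2.40 to -0.18. The largest shift came from centring on ACT1. This gene had log2 ratios of -0.78, -0.50 and -0.44 in hybridizations 1, 2 and 3. Centring on it raised the median of all 4368 from -0.01 to 0.60 and that of the 9 genes from -0.95 to -0.31. Under it OPI3 was at -1.74, CHO2 at -1.46, INO1 at -1.39, ITR1 at -0.81 and OPI1 at -0.31.

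**Figure D4:**
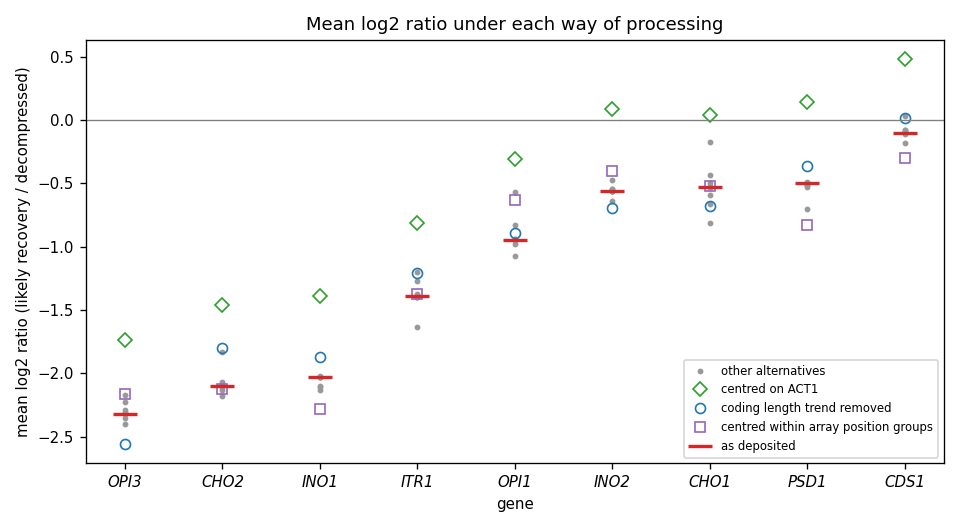
Mean log2 ratio (likely recovery over decompressed) of each of the 9 genes under each way of processing; the dash is the value as deposited, diamonds are centred on ACT1, open circles have the length trend removed, squares are centred within array position groups and grey points are the other alternatives. OPI3, CHO2, INO1, ITR1 and OPI1 stay below 0 throughout, and INO2, CHO1, PSD1 and CDS1 lie above 0 when centred on ACT1.

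Likeness in log2 ratio was measured as the Euclidean distance over the 3 hybridizations among 1890 other genes and features. The nearest to OPI3 was MCH5, a riboflavin transporter gene, at a distance of 0.33. SAM2, an S-adenosylmethionine synthetase gene, followed at 0.40, with ratios of -2.18, -2.17 and -2.25. PST1, a cell wall protein gene, lay at 0.42, MET17, of sulphur assimilation, at 0.53 and PTP2, a protein phosphatase gene, at 0.76. The distance was taken on the ratios themselves, so it picks genes whose ratios are about as low as those of OPI3. OPI3 was the 3rd lowest of the 1891 with 3 values, of which 8 had a mean of -2 or lower. With 3 values per gene the comparison is a description. CHO2 and INO1 could not enter it, since they had no value in hybridization 3.

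The rest of phospholipid and inositol metabolism was read from 6 lists drawn up by role. Of 70 listed genes, 50 had values in 2 or more hybridizations. Limma called 10 of the 50 lower and 2 higher in recovery, against 12.7% and 11.9% of all 4368, and their median log2 ratio was -0.10 against -0.01 for all. In this fit the variance was pooled wholly across genes, so that every gene with 2 values had the same standard error of 0.32 and its p-value rests on its mean. The size of such p-values depends on that pooling. For GDE1, HAC1 and PLB1 the limma adjusted p was 1.68e-10, 8.43e-09 and 2.09e-07 in this fit. With hybridizations 1 and 2 only, on the same values, it was 1.78e-06, 5.8e-06 and 1.5e-05. With the 5 scans and the hybridization as a random block it was 0.000507, 0.000458 and 0.000463. Centred on ACT1, which shifts every gene of a hybridization alike, 18 of the 50 were called higher and 5 lower, where 44.7% and 3% of all 4368 were. At an unadjusted p under 0.05 limma had 12 lower and 4 higher of the 50, against 17.7% and 17.4% of all 4368.

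**Figure D5:**
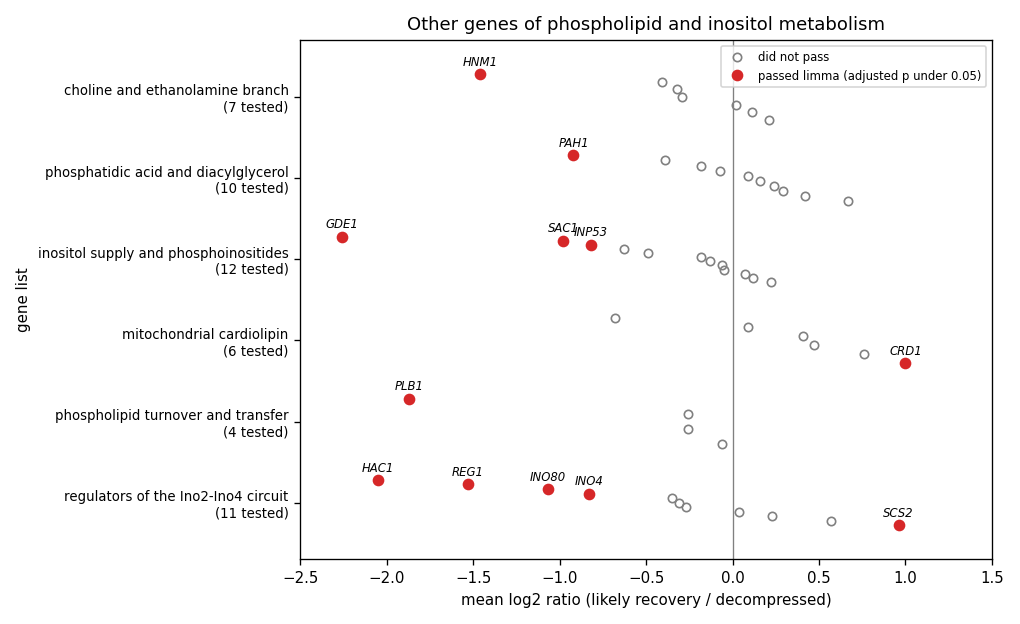
Mean log2 ratio (likely recovery over decompressed) of the 50 other genes, one circle per gene, in 6 lists with the number tested; filled circles passed limma at an adjusted p under 0.05. GDE1, HAC1 and PLB1 lie lowest, at -2.26, -2.05 and -1.87, and CRD1 and SCS2 are the 2 that passed above 0.

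The choline and ethanolamine branch makes phosphatidylcholine from imported choline. Of its 7 tested genes, 1 fell (against 12.7% of all 4368) and none rose (against 11.9%). HNM1 (YGL077C), the choline and ethanolamine transporter, had log2 ratios of -1.73, -1.44 and -1.19, and its mean was -1.46 ± 0.27 (SD, n = 3, limma adjusted p = 9.33e-07). Its values were below 0 in all 3 hybridizations, and over genes with 3 values its adjusted p was 0.000928. The other 6 tested genes did not pass and had means from -0.41 to 0.21. PCT1, which makes CDP-choline, was at 0.11 and EPT1, an ethanolaminephosphotransferase, at 0.21. DPL1, the lyase that gives ethanolamine phosphate from sphingoid bases, was at -0.41.

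Of 10 tested genes that make or use phosphatidic acid and diacylglycerol, 1 fell (against 12.7% of all 4368) and none rose (against 11.9%). Their median was 0.13. PAH1 (YMR165C), the phosphatidic acid phosphatase, was at -1.39 in hybridization 1 and -0.45 in hybridization 2, with a mean of -0.92 ± 0.67 (SD, n = 2, limma adjusted p = 0.0209). After the length correction PAH1, 2589 bases long, was at -0.62 and no longer passed (limma adjusted p = 0.141). DGK1, the diacylglycerol kinase that works against it, was at 0.42 and did not pass. AYR1, which completes one route to lysophosphatidic acid, was at 0.67, and APP1, another phosphatidic acid phosphatase, at -0.39; neither passed.

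Among 12 tested genes of inositol supply and phosphoinositides, 3 fell (against 12.7% of all 4368) and none rose (against 11.9%). GDE1 (YPL110C) stood in this list although it releases choline from glycerophosphocholine. It was at -2.57 and -1.95, with a mean of -2.26 ± 0.44 (SD, n = 2, limma adjusted p = 1.68e-10). Like INO1 it had high power values only. SAC1, the phosphatase of phosphatidylinositol 4-phosphate, was at -1.11, -1.23 and -0.61, with a mean of -0.98 ± 0.33 (SD, n = 3, limma adjusted p = 0.00177). SAC1 no longer passed when hybridization 1 was left out (limma adjusted p = 0.0794), nor without hybridization 2 (0.0753). INP53, another phosphoinositide phosphatase, was at -0.82 ± 0.05 (SD, n = 2, limma adjusted p = 0.0439) and at -0.46 after the length correction, where it did not pass (0.235). It also missed the threshold when centred by position (limma adjusted p = 0.112). The phosphatidylinositol kinase genes STT4 and MSS4 were at 0.22 and 0.12 and did not pass. ITR2, the second inositol transporter gene, was at -0.49 and INM1, an inositol monophosphatase gene, at -0.63, and neither passed. ITR1 and ITR2 are similar in sequence, and how far their signals mix on this array was not tested.

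Cardiolipin is the mitochondrial lipid that also starts from CDP-diacylglycerol. Of 6 tested genes of its synthesis, breakdown and lipid transfer, 1 rose (against 11.9% of all 4368) and none fell (against 12.7%). CRD1 (YDL142C), the cardiolipin synthase, was at 1.02 in hybridization 1 and 0.97 in hybridization 3, with a mean of 1.00 ± 0.04 (SD, n = 2, limma adjusted p = 0.0115). GEP4, the phosphatase just before it, was at 0.76 (limma adjusted p = 0.0653). CLD1, a cardiolipin lipase, was at -0.68 and UPS2, a lipid transfer protein gene, at 0.09, and neither passed.

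Of 4 tested genes of phospholipid turnover and transfer, 1 fell (against 12.7% of all 4368). PLB1 (YMR008C), a phospholipase B, was at -1.96 and -1.79, with a mean of -1.87 ± 0.13 (SD, n = 2, limma adjusted p = 2.09e-07). Its relative PLB3 was at -0.06, and the lipid transfer protein genes PDR16 and PDR17 were both at -0.26; these did not pass.

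Among 11 tested genes that act on the Ino2-Ino4 circuit, 4 fell (against 12.7% of all 4368) and 1 rose (against 11.9%). HAC1 (YFL031W), the transcription factor of the unfolded protein response, was at -2.36 in hybridization 1 and -1.75 in hybridization 2, with a mean of -2.05 ± 0.44 (SD, n = 2, limma adjusted p = 8.43e-09). IRE1, the sensor that splices the HAC1 transcript, was at -0.31 and did not pass. REG1, a phosphatase subunit of glucose repression, was at -2.04 and -1.02, with a mean of -1.53 ± 0.72 (SD, n = 2, limma adjusted p = 3.68e-05). INO80, a chromatin remodeller first found through its need for INO1 expression, was at -1.07 ± 0.31 (SD, n = 2, limma adjusted p = 0.00619) and at -0.64 after the length correction, where it did not pass (0.104).

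INO4 (YOL108C), the partner of INO2, was at -0.31, -0.64 and -1.54, with a mean of -0.83 ± 0.63 (SD, n = 3, limma adjusted p = 0.00979). Hybridization 3 was the lowest, and without it the mean was -0.48 and did not pass (limma adjusted p = 0.2); it missed the threshold without hybridization 2 as well (0.0802). SCS2 (YER120W), the membrane protein of the endoplasmic reticulum that holds Opi1 there, rose. It was at 0.48, 0.94 and 1.47, with a mean of 0.96 ± 0.50 (SD, n = 3, limma adjusted p = 0.00237). All 3 values were above 0, but SCS2 no longer passed when hybridization 2 (limma adjusted p = 0.058) or 3 (0.056) was left out. UME6, a regulator that represses INO1, was at 0.57 and did not pass. OPI1, INO2 and INO4, the repressor and both activator subunits, all had means below 0, from -0.95 to -0.56, as did 50.5% of all 4368. INO2 was not called, and it was at 0.09 when centred on ACT1. SCS2 lay on the other side of 0.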

How the data were processed

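The values deposited by the authors are log2 ratios for each scan; per the labels, the authors applied a LOWESS normalization to spots flagged 0. Scanner, image software and ratio direction are not given in the sources used here. The log base was read from the lowest value, the log2 of 0.01. The platform annotation named 5297 of 6336 features, and 5293 matched the RefSeq table of assembly R64 by Entrez identifier; 96.3% of its protein-coding lengths are multiples of 3, hence "coding length", which includes introns.

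Features of one gene were averaged, then the 2 scans of hybridizations 1 and 2. Means were tested against 0 (limma 3.58.1, R 4.3.3, two-sided, Benjamini-Hochberg over all genes and unnamed features) over those with 3 values (prior degrees of freedom 12.2), and over those with at least 2 values, where the prior degrees of freedom were infinite. In 20 simulated sets on the 4368, genes changed by a log2 of 0.5, 1 and 1.5 were recovered at 7.5%, 58.3% and 95.3%. On the 1891 the shares were 14.3%, 81.8% and 99.8%. In both, 4% of the calls made in these sets were false. The noise of the sets was drawn as normal and independent, with the variances that limma estimated from these data. The sets thus meet the assumptions of the fit, and these shares are no check of those assumptions. The share of false calls in the deposited data was not tested.

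The 9 genes, the lists and the tests were chosen with earlier results of these data known. The text names all 9 genes and, per list, every gene that passed and, where fewer than 4 passed, up to 2 with the lowest and 2 with the highest mean; IRE1, ITR2, INM1 and UME6 were added after their values were seen, as near partners of genes named. Nearest in log2 ratio were the 5 genes closest to OPI3. Alternatives were single scans, a random block, centrings, scaling, weights, a robust prior, a plain t-test, length and position corrections, and each hybridization left out. A further gene of the original choice is not reported here. Listed genes without a matching name or with fewer than 2 values were not analysed here.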

Additional observations from a re-analysis of the deposited data

How the results depend on the processing

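The median of the 9 genes, -0.95, stayed negative under every alternative run; centred on ACT1 it moved to -0.31, and without any 1 hybridization it ran from -1.27 to -0.89, over the 4 genes that keep 2 values when hybridization 1 or 2 is left out. Of the 9 genes, 5 were called lower; this was 4 centred on ACT1 (without OPI1), 4 with low power scans only, where INO1 has no value, 6 after the length and position corrections together (with CHO1 and PSD1 and without OPI1) and 0 by the plain t-test. Without hybridization 1 or 2 it was 2 of the 4 with values. The share of all genes called lower changed as well, from 12.7% to 3% centred on ACT1 and 9.03% with low power scans only. It was 13.5% with both corrections, 0% by the plain t-test, and 6.64% and 8.48% without hybridization 1 and 2. Of 4368 tested, 1072 passed, and 2084 did when centred on ACT1 (1953 higher). With low power scans only, 633 of 3478 passed. Without hybridization 1, 2 and 3 in turn, 262 of 2004, 340 of 1933 and 1057 of 4213 passed. The genes tested differ between these fits, so the counts are not over 1 set. Of the 1891 with 3 values, 515 passed, and 967 did when centred on ACT1 (93.1% higher against 55.3%). With a hybridization left out no gene keeps 3 values, so the counts above stand for both. The plain one-sample t-test called 0 of the 4368 and 0 of the 1891, with 668 and 429 at an unadjusted p under 0.05. Of the 50 other pathway genes 12 passed; this was 23 centred on ACT1, 7 with low power scans only (36 tested), 0 by the plain t-test, and 2 to 9 without any 1 hybridization, where 15 or 16 could be tested without hybridization 1 or 2. HNM1, HAC1, GDE1, PLB1, REG1 and CRD1 passed under every alternative that could test them except the plain t-test. Centred on ACT1, INO4, INO80, INP53, PAH1 and SAC1 no longer passed. INO4 also missed the threshold with low power scans only (-0.82, limma adjusted p = 0.063). The alternatives not named here kept each of these counts within 1.5 times. Without low power scans for INO1 and with no value in hybridization 3 for CHO2, PSD1, INO1, OPI1 and INO2, 2 values are all that bear on these genes.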
